A study of Oryctolagus cuniculus with 9 samples.

Results

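The baseline transcriptome of the normal rabbit vocal fold was described from the 3 libraries of uninjured folds among the 9 libraries of the study. They were chosen by their label alone, as the libraries of the normal condition. The study sequenced polyadenylated RNA of rabbit (Oryctolagus cuniculus) vocal folds. Besides the normal group it has 3 libraries of folds with an untreated injury and 3 of folds with an injury and a hydrogel named SOT, and neither was analysed here. The labels describe the normal group by its condition and by the tissue, vocal fold. Normal replicates 1, 2 and 3 are called replicates 1, 2 and 3 below, and values listed without a name are in that order.

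The vocal fold is a layered organ. A stratified, non-keratinised squamous epithelium covers its vibrating edge and passes into a secretory and ciliated airway epithelium above and below it. Beneath lies the lamina propria, whose fibroblasts make collagen, elastic fibres, hyaluronan and proteoglycans, and seromucous glands in the neighbouring mucosa keep the surface wet. The thyroarytenoid muscle forms the body of the fold and attaches to cartilage, and branches of the vagus nerve supply it.

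The deposited values are read counts and FPKM, fragments scaled by the length of the gene model and by the size of the library, for 20525 genes. Total counts were between 44755718 and 45521838 per library. A mean of at least 1 FPKM was reached by 13368 genes and a mean of at least 1000 by 44, while 16980 genes had counts in all 3 libraries and 1157 in none. Errors are SDs over n = 3 libraries. The labels used here do not say whether the replicates are separate animals, so the spread may be biological or technical. In whole tissue, fewer cells of a type and less RNA per cell cannot be told apart. FPKM values are relative within a library, so a larger share for some genes leaves less for the rest.

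The cell type label reads vocal cord histiocytes, a name for tissue macrophages. The macrophage genes were a small part of these libraries. Genes of the macrophage and histiocyte list held 0.134%, 0.191% and 0.168% of the summed FPKM, and the defining markers CSF1R, CD68 and CD163 had means of 25.8, 21.6 and 6.91 FPKM. Keratins, secretory proteins, muscle proteins and matrix proteins led the ranking instead, and the libraries are described here as vocal fold tissue.

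The most abundant transcripts came from several tissues at once. The first place by mean FPKM belonged to a gene model described as basic salivary proline-rich protein 2-like, a secreted salivary type protein, at 12539, 1932 and 1529 FPKM. Replicate 1 put it there: its mean was 5334 FPKM over the 3 libraries and 1731 without replicate 1, and in the other libraries it stood below KRT13. The paired airway secretory proteins BPIFB1 and BPIFA1, which bind bacterial lipid at the mucosal surface, were next, at 5997, 7782 and 507 FPKM and at 6126, 7234 and 475 FPKM. Both were more than 10 times lower in replicate 3 than in the other libraries. KRT13, the keratin of moist stratified epithelium, was at 3258, 2465 and 7288 FPKM and was highest in replicate 3. EEF1A1, the translation elongation factor used by all cells, was at 3857, 4343 and 4176 FPKM, with little difference between libraries. MGP, matrix Gla protein, a calcification inhibitor made by fibroblasts and chondrocytes, was at 3356, 5046 and 3199.5 FPKM.

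Of the 30 genes of highest mean FPKM, 20 were members of the gene lists used here. The lists name 936 distinct genes, against 20525 in the table, and were chosen with earlier results of these data known. Of the 30, 15 ranged over at least 2 times between libraries, a range reached by 11.9% of all 13368 genes with a mean of at least 1 FPKM. The ranking uses the same libraries, so 1 high library can lift a gene into the 30. Ribonuclease 8, a secreted RNase, was at 8460.2, 555 and 787 FPKM, and SPINK9, a Kazal-type protease inhibitor, was at 5565, 3848 and 745 FPKM. The iron carrier transferrin (TF) was at 4979, 3614 and 628 FPKM. Replicate 3 held the least of SPINK9 and transferrin, and replicate 1 held by far the most ribonuclease 8, whose mean fell from 3267 to 671 FPKM without that library. A lipocalin-1 model, a carrier of small lipids in tears and saliva, was at 4534, 2915 and 73.4 FPKM. It had the widest range of the 30, and its mean was 2508 FPKM over all libraries and 1494 without replicate 1. The constant region of immunoglobulin gamma was at 3584, 5327 and 1268 FPKM. ANXA1, annexin A1, an abundant protein of squamous epithelium, was at 1809, 1732 and 3955 FPKM, highest in replicate 3. SPARC, a collagen-binding matrix glycoprotein, was at 1871, 2814 and 1984 FPKM, and the actin-severing protein gelsolin (GSN) was at 1811, 2895 and 1775 FPKM. Both were highest in replicate 2. The ferritin heavy chain FTH1, the ribosomal protein RPLP1 and TPT1, a growth-related cytosolic protein, had means of 1579 ± 270.1, 1581 ± 122 and 1424 ± 42.4 FPKM. The remaining genes of the 30 are given with their tissues below.

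**Figure D1:**
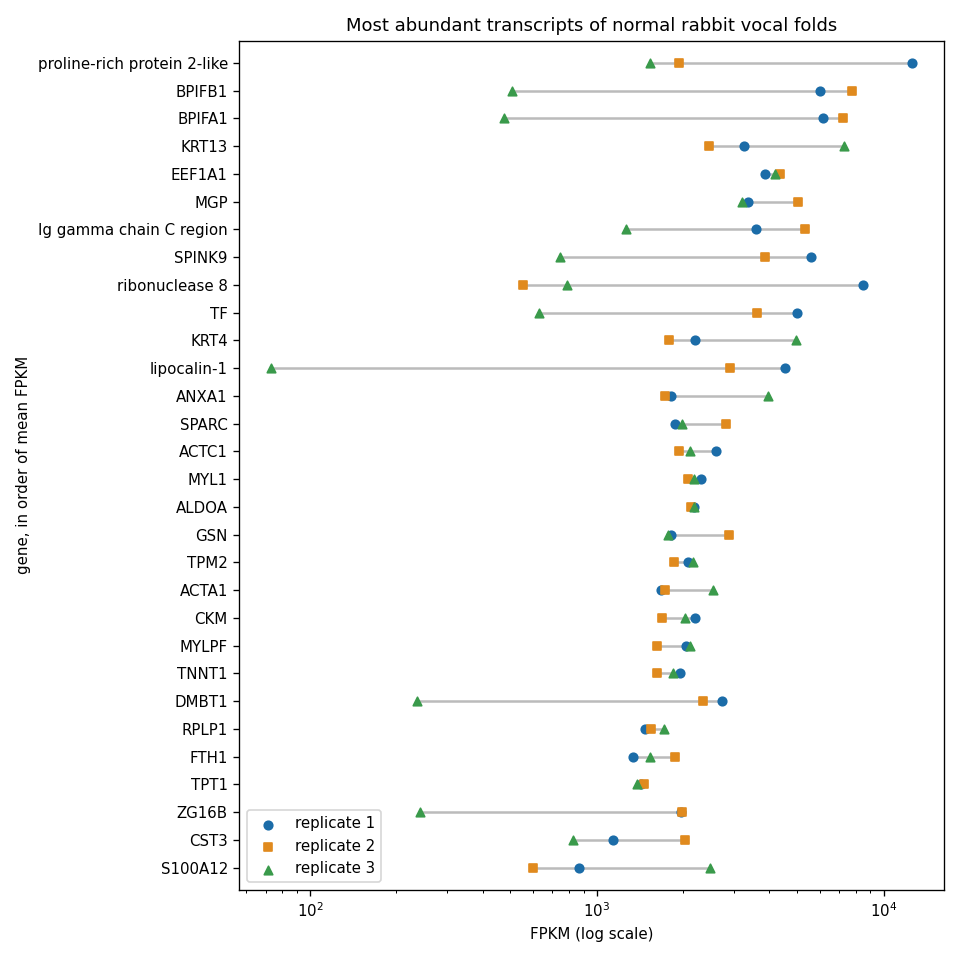
Each row is 1 of the 30 genes of highest mean FPKM in normal folds, from the top down, and the 3 points are the 3 libraries on a log scale of FPKM, joined by a line from the lowest to the highest. Secretory genes such as BPIFB1, lipocalin-1 and DMBT1 span wide ranges with replicate 3 at the low end, while the muscle genes from ACTC1 to TNNT1 and EEF1A1 have points that lie close together.

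The 10 genes of highest mean FPKM held 12.6%, 9.59% and 4.77% of the summed FPKM. Each library's own 10 highest genes held 12.9%, 10.43% and 8.13%, and its own 100 highest held 33.98%, 31.2% and 27.1%. The number of genes that together made up 50% of a library's FPKM was 353, 401 and 494. By its own highest genes, replicate 1 was the most concentrated library and replicate 3 the least. Among the tissue lists, the common genes of skeletal muscle held the largest mean share, 4.52% ± 0.4198, followed by the lamina propria list with 3.36% ± 0.7695, airway secretory epithelium with 2.66% ± 1.61 and suprabasal stratified epithelium with 2.24% ± 1.37. Seromucous glands held 1.58% ± 0.876 and cartilage 1.23% ± 0.363. In replicate 2 the lamina propria list was ahead of muscle. Lists overlap in some genes, and a list's share depends on the genes chosen for it, so these shares are not proportions of cells.

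**Figure D2:**
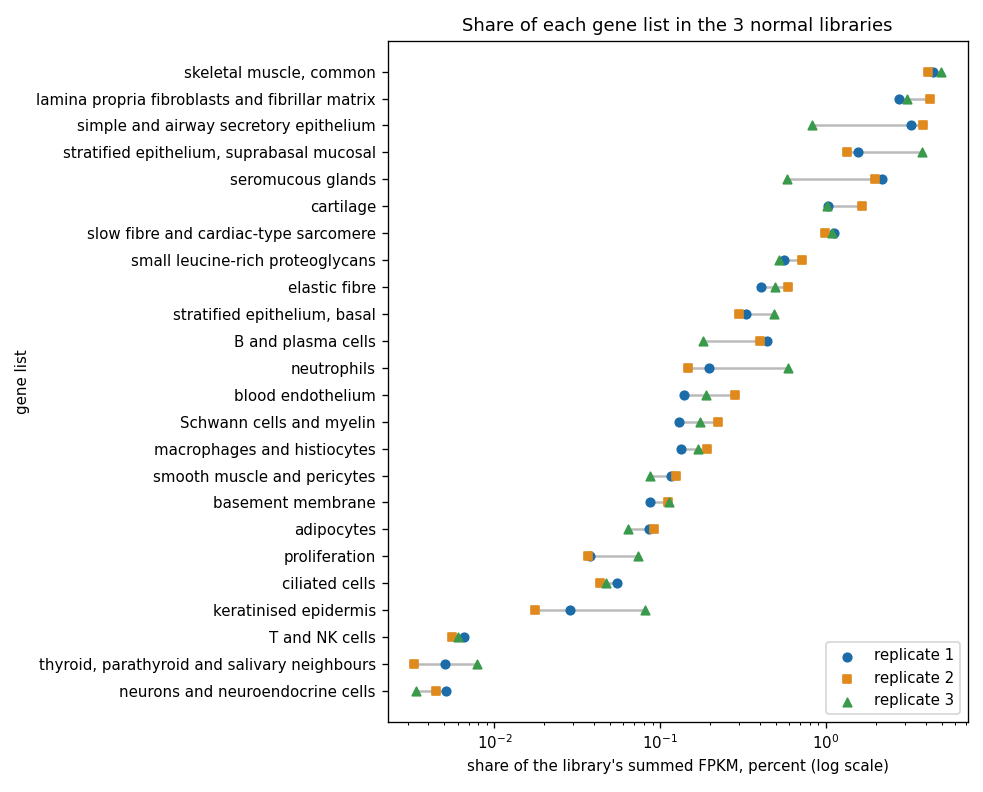
Share of each library's summed FPKM held by the members of 24 gene lists, in percent on a log scale, with 1 point per normal library. Muscle and lamina propria lie at the top with points close together, and the T cell, neuron and thyroid lists lie at the bottom. The gland list has replicate 3 far to the left and the suprabasal list has it to the right. The airway list also has replicate 3 far to the left, through BPIFA1 and BPIFB1.

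To read the spread of the lists, the same counts were taken over all 13368 genes with a mean of at least 1 FPKM. The highest library was at least 2 times the lowest for 11.9% of them, as given above. Replicate 1 was the highest library for 27.9%, replicate 2 for 32.0% and replicate 3 for 40.1%, while replicate 1 was the lowest for 34.4%, replicate 2 for 36.4% and replicate 3 for 29.2%. The median of the ratio of highest to lowest library was 1.296. Of the same genes, 976 ranged over at least 2 times without replicate 1, 922 without replicate 2 and 685 without replicate 3, against 1597 with all libraries. Where a list is recounted without 1 library, that is mostly the library in which it stood apart, so a fall is partly built in. Counts below are of list members with a mean of at least 1 FPKM.

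Genes of stratified mucosal epithelium were among the most abundant of the tissue and highest in replicate 3. KRT13 and its partner KRT4, the keratins of differentiating non-keratinised epithelium, kept a nearly fixed ratio. KRT4 was at 2202, 1790.2 and 4951 FPKM, and KRT4 over KRT13 came to 0.676, 0.726 and 0.679. Together with them, EMP1, a membrane protein of differentiating epithelium, was at 312, 263 and 713 FPKM, and S100A14, a calcium-binding protein, at 199, 198 and 595 FPKM. MAL, a raft protein of the apical membrane, was at 101, 108 and 278 FPKM. In each of these genes replicate 3 was the highest library and was more than 2 times either other library. Cornulin (CRNN), a late marker of oesophageal-type squamous cells, was at 60.7, 38.3 and 189 FPKM. Of 25 suprabasal members at 1 FPKM or more, 23 were highest in replicate 3, 2 in replicate 1 and 0 in replicate 2, and 19 had a range of at least 2 times. Without replicate 3, 3 had such a range. The list held 1.56%, 1.33% and 3.81% of the summed FPKM. Without replicate 3, its mean share was 1.45% in place of 2.24%.

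Basal layer genes ranged less. KRT15, KRT5 and KRT14 are keratins of basal cells, and TP63 is the transcription factor that keeps them stratified. KRT15 was at 637, 477 and 821 FPKM, KRT5 at 253, 215 and 416 FPKM and KRT14 at 80.1, 81.7 and 151 FPKM. TP63 was at 18.95, 12.04 and 23.1 FPKM, and KRT19, a keratin shared by basal and simple cells, at 236, 219 and 345 FPKM. Replicate 3 was again the highest library for all 5, and none of them ranged over 2 times. Of 16 basal members, 11 were highest in replicate 3 and 2 ranged over at least 2 times, TRIM29, a protein of squamous cells, and PDPN, given with the lymphatic genes. KRT13 made up 44.6%, 42.4% and 49.3% (mean 45.4% ± 3.52) of the summed keratin FPKM and KRT4 made up 30.1%, 30.8% and 33.5% (mean 31.5% ± 1.78), over 38 keratin gene models. Keratin 6A, a keratin of stressed and hyperproliferative epithelium, is the description of 4 gene models, a group put together after the values had been seen. They summed to 21.5, 26.7 and 65.6 FPKM, and the 3 that reached 1 FPKM were highest in replicate 3, although reads can be split between such copies.

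The epidermal keratins and filaggrin of dry, keratinised skin were low, but not every gene of that list. KRT1 and KRT10, the suprabasal keratins of epidermis, were at 1.78, 1.38 and 1.99 FPKM and at 3.49, 5.63 and 8.24 FPKM. Filaggrin (FLG), which bundles keratin in the horny layer, was at 0.0128, 0 and 0 FPKM. Of 17 matched members, 6 reached a mean of 1 FPKM, with a median of 14.1 FPKM, and 4 a mean of 10 FPKM. KRTDAP, a small secreted protein of differentiating keratinocytes, made up 71.1% of the list's summed FPKM with 82.2, 39.98 and 276 FPKM. Replicate 3 was highest for 5 of these 6, and 5 ranged over at least 2 times, 2 without replicate 3. A group of membrane serine proteases, the TMPRSS11 models, was put together after the values had been seen. Of 8 models, 6 reached 1 FPKM, each highest in replicate 3, among them TMPRSS11A at 54.2, 46.3 and 135 FPKM and TMPRSS11D at 17.9, 14.6 and 42.7 FPKM.

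Several of the most abundant secretory genes of airway surface and glands differed widely between the libraries. BPIFA1 over BPIFB1 was 1.02, 0.929 and 0.937, so the ratio of the pair was alike in libraries that differed over 10 times in each gene. ALDH1A1, a retinaldehyde dehydrogenase of secretory cells, was at 444, 341 and 579 FPKM and was highest in replicate 3. SCGB3A2, a secretoglobin of club cells, was at 487, 368 and 283 FPKM. KRT8, the keratin of simple epithelium, was at 174, 132 and 129 FPKM, highest in replicate 1. SCGB1A1, uteroglobin, the classic club cell product, was at 125, 12.97 and 16.9 FPKM, and the gel-forming mucin MUC5B was at 118, 18.05 and 4.82 FPKM. Both were high in replicate 1 only. MUC5AC, the mucin of goblet cells, was at 0.2997, 0.194 and 0.181 FPKM. Within the list of 25 members, 12 were highest in replicate 1, 4 in replicate 2 and 9 in replicate 3, and 14 ranged over at least 2 times, 4 without replicate 3. The list held 3.27%, 3.88% and 0.830% of the summed FPKM, 2.66% on average. BPIFA1 and BPIFB1 made up most of it in replicates 1 and 2, but not in replicate 3. With both left out, the other members summed to less in replicate 2 than in replicate 3. The mean share was 0.619% when the 10 most abundant genes of the table, both of them included, were left out.

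Gland genes were mostly lowest in replicate 3. The defining markers lactoferrin (LTF), an iron-binding antimicrobial protein, and PIP, prolactin-induced protein, were at 49.3, 71.6 and 11.7 FPKM and at 13.1, 12.4 and 1.07 FPKM. The third marker, lactoperoxidase (LPO), had no counts in any of the 3 libraries, which allows up to 0.0670 CPM (counts scaled to the size of the library), taking 3 counts as the limit. DMBT1, a large scavenger glycoprotein of saliva and mucus, was at 2724, 2337 and 236 FPKM, and ZG16B, a lectin of serous acini, at 1962, 1980.2 and 241 FPKM. Cystatin C (CST3), a protease inhibitor of body fluids, was at 1138, 2026 and 826 FPKM, and CRISP3, a cysteine-rich salivary protein, at 1559, 685 and 308 FPKM. Replicate 3 was the lowest library for each of these 4. PIGR, the receptor that carries dimeric immunoglobulin A into secretions, was at 623, 599 and 116 FPKM, and the water channel AQP5 of serous cells at 317, 188 and 205 FPKM. Carbonic anhydrase 6 (CA6), a secreted enzyme of saliva, was at 610.3, 153 and 3.39 FPKM, the widest range of the list. Of 28 members, 24 were lowest in replicate 3, 17 highest in replicate 1 and 22 ranged over at least 2 times, with a median ratio of 3.82. Without replicate 3, 6 ranged that widely. The 3 members highest in replicate 3 were LYZ, SLPI and BARX2.

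Lysozyme departed from the other gland products. The LYZ gene was at 78.05, 8.79 and 82.2 FPKM, lowest in replicate 2. The 3 gene models described as lysozyme C, put together after the values had been seen, summed to 170.0, 24.5 and 162 FPKM. The secretoglobin and lipophilin models, a gene family grouped after the values had been seen, were at 2415, 508 and 758 FPKM in sum. All 9 models at 1 FPKM or more were highest in replicate 1, among them lipophilin AL at 1038, 35.96 and 266 FPKM and mammaglobin-B at 518, 30.9 and 149.7 FPKM. SCGB3A1 was at 52.02, 45.8 and 2.97 FPKM, low in replicate 3.

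Plasma cell transcripts, like gland genes, were lowest in replicate 3. JCHAIN, which joins immunoglobulin A and M into polymers, was at 1802, 1559 and 509 FPKM, MZB1, a chaperone of antibody secretion, at 27.5, 28.4 and 9.13 FPKM, and DERL3, an endoplasmic reticulum protein of secretory cells, at 7.29, 7.5997 and 1.86 FPKM. Of 8 members, 7 were lowest in replicate 3 and 6 ranged over at least 2 times, 0 without replicate 3. The other member, SDC1, a syndecan that epithelium also makes, was highest there at 159, 156 and 257 FPKM. The B cell surface gene MS4A1 was under 1 FPKM, at 0.611, 0.629 and 0.109 FPKM. Of 65 models described as immunoglobulin chains, grouped after the values had been seen, 40 reached 1 FPKM, and 34 of these were lowest in replicate 3. The models summed to 6854, 8959.9 and 2043 FPKM. Of the 40, 38 ranged over at least 2 times and 17 did without replicate 3. Reads from variable regions can fit several such models, so single models are uncertain.

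Transcripts of motile cilia were mostly scarce. FOXJ1, the master transcription factor of motile cilia, was at 2.42, 1.56 and 0.365 FPKM, and the dynein chain DNAI1 at 0.6902, 0.423 and 0.416 FPKM. TPPP3, a tubulin-binding protein that is not restricted to ciliated cells, was at 28.3, 20.8 and 33.2 FPKM. Of 26 matched ciliary members, 8 reached 1 FPKM, and TUBA1A, a tubulin found in many cells, made up 77.2% of the list's sum. Replicate 1 was highest for FOXJ1, for DNAI1 and for 5 of the 8 members at 1 FPKM, FOXJ1 among them. FOXJ1, CFAP126 and CFAP43 ranged over at least 2 times, and 0 of the list did without replicate 3.

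Collagen and other fibroblast genes were mostly highest in replicate 2. COL1A1 and COL1A2, the chains of type I collagen, were at 245, 428 and 401 FPKM and at 435, 677 and 599 FPKM, and COL3A1, the chain of type III collagen, was at 593, 695 and 896 FPKM. The ratio of COL1A1 to COL3A1 was 0.414, 0.616 and 0.448, so in each library COL3A1 exceeded COL1A1 per length. Vimentin (VIM), the filament protein of mesenchymal cells, was at 933, 1479 and 949 FPKM, and the fibroblast receptor PDGFRA at 28.99, 27.2 and 26.2 FPKM. Replicate 2 was highest for COL1A1, COL1A2 and VIM and replicate 3 for COL3A1, while PDGFRA hardly differed. Of 45 members, 32 were highest in replicate 2, 9 in replicate 3 and 4 in replicate 1. The median ratio was 1.51, above that of all genes, but 1 member ranged over at least 2 times, COL6A2. The list held 2.77%, 4.23% and 3.08% of the summed FPKM.

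Over the 43 collagen chain genes, COL3A1 held 22.1%, 17.1% and 27.1% (mean 22.1% ± 4.99) of the summed FPKM, COL1A2 held 16.2%, 16.7% and 18.1% (mean 17.01% ± 0.9896) and COL1A1 held 9.15%, 10.6% and 12.1% (mean 10.6% ± 1.49). COL2A1, the collagen of cartilage, followed with 11.2%, 10.9% and 6.49% (mean 9.53% ± 2.64). The beaded-filament chains COL6A1 and COL6A2 were at 123, 235 and 151 FPKM and at 132, 277 and 159.9 FPKM, both highest in replicate 2.

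Elastic fibre genes were mostly highest in replicate 2 as well. Elastin (ELN), the core protein of the fibre, was at 370.1, 691 and 529 FPKM, and fibrillin-1 (FBN1), the main microfibril protein, at 58.9, 79.7 and 70.8 FPKM. The microfibril-associated proteins MFAP4 and MFAP5 were at 268, 346 and 295 FPKM and at 263, 324 and 265 FPKM. Fibulin-1 (FBLN1), a binding partner of elastin, was at 293, 323 and 276 FPKM, and fibulin-5 (FBLN5), needed for fibre assembly, at 37.7, 57.3 and 48.4 FPKM. Of 19 members, 15 were highest in replicate 2 and 13 lowest in replicate 1, and 1 ranged over at least 2 times, EMILIN1, an elastic fibre glycoprotein. Elastin made up 19.9%, 26.6% and 24.8% (mean 23.8% ± 3.49) of the summed FPKM of the list. By read counts, which favour long genes, it held 12.2% on average, behind MFAP5 with 15.3% and FBN1 with 13.2%.

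Among proteoglycans, decorin (DCN), which coats collagen fibrils, was at 954, 845 and 639.7 FPKM, and osteoglycin (OGN), a further fibril-binding member, at 685, 901 and 648 FPKM. Biglycan (BGN) was at 317, 623 and 450.2 FPKM and lumican (LUM) at 264, 256 and 221 FPKM. Decorin was highest in replicate 1 and biglycan in replicate 2, and the ratio of decorin to biglycan was 3.01, 1.36 and 1.42. Of 14 small leucine-rich proteoglycans, 9 were highest in replicate 2 and 9 lowest in replicate 3, and 4 ranged over at least 2 times, FMOD, PRELP, CHAD and CHADL. Without replicate 2, 0 members did, and these 4 are also cartilage products. The hyaluronan receptor CD44 was at 54.8, 55.5 and 58.4 FPKM and the large proteoglycan versican (VCAN) at 12.7, 18.8 and 20.4 FPKM. HYAL2, a hyaluronidase, was at 29.7, 27.1 and 33.5 FPKM, UGDH, which makes a precursor sugar of hyaluronan, at 27.7, 35.998 and 25.7 FPKM, and the link protein HAPLN1 at 23.3, 37.7 and 27.7 FPKM. Transcripts of the synthases were scarce. HAS2 was at 2.703, 5.17 and 2.58 FPKM, HAS3 at 0.606, 1.27 and 0.643 FPKM and HAS1 at 0.257, 1.63 and 0.242 FPKM, each highest in replicate 2. Of 15 members of the hyaluronan list, 8 were highest in replicate 2, 7 in replicate 3 and 0 in replicate 1.

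Basement membrane genes ranged about as much as genes in general. The laminin chain LAMB2 was at 68.6, 92.3 and 83.1 FPKM, nidogen-1 (NID1), which links laminin to collagen, at 43.4, 47.8 and 51.8 FPKM, and the type IV collagen chain COL4A1 at 27.7, 34.8 and 36.7 FPKM. COL17A1, the hemidesmosomal collagen of basal keratinocytes, was at 30.8, 27.1 and 44.6 FPKM, and the laminin chains LAMC1 and LAMA5 at 24.1, 25.7 and 25.9 FPKM and at 5.81, 6.35 and 6.75 FPKM. The highest library was at least 2 times the lowest for 2 of 26 members, LAMA1 and FREM1, and the median ratio was 1.33.

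Skeletal muscle genes were abundant and alike in the 3 libraries. The list held 4.43%, 4.16% and 4.98% of the summed FPKM, with a median ratio between libraries of 1.23 against 1.296 for all genes. MYL1, an essential light chain of fast myosin, was at 2301, 2074 and 2191 FPKM, and MYLPF, the fast regulatory light chain, at 2039, 1617 and 2121 FPKM. Beta-tropomyosin (TPM2) was at 2080.2, 1862 and 2169 FPKM and the muscle creatine kinase CKM at 2195, 1691 and 2024 FPKM. Desmin (DES), the muscle intermediate filament, was at 557, 564 and 752 FPKM. None of these 5 ranged over 2 times. Replicate 1 was highest for 25 of 54 members, replicate 2 for 6 and replicate 3 for 23, and 3 ranged over at least 2 times, MYOM2, LMOD2 and ANKRD1.

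The sarcomeric actins were at 2612, 1928 and 2114 FPKM for ACTC1, the cardiac and developmental form, and 1670.1, 1724 and 2552 FPKM for ACTA1, the adult skeletal form. Their order differed between libraries. Their coding sequences are nearly identical and reads can be split between them in either way, so their sum, 4282, 3652 and 4666 FPKM, is the safer value.

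The myosin heavy chain genes set the speed of a fibre. The skeletal genes MYH3, MYH2, MYH1, MYH4, MYH8 and MYH13 lie in that order on chromosome 19 of the build OryCun2.0, where MYH3 spans 8926812 to 8951871 and MYH13 spans 9190202 to 9246960. MYH1 was at 1177, 949.9 and 1423 FPKM and made up 59.3%, 55.1% and 69.4% (mean 61.3% ± 7.33) of the family's summed FPKM. The symbol MYH1 stands for the fast type IIX chain, but the deposited description of this gene reads myosin-4, so its identity as IIX or IIB is uncertain. MYH13, the superfast myosin of laryngeal and eye muscles, was second at 311, 282 and 243 FPKM, with 15.7%, 16.4% and 11.8% (mean 14.6% ± 2.44). MYH4, the fast type IIB chain by its symbol, was at 269, 205 and 153 FPKM, and MYH2, the type IIA chain, at 130.0, 165 and 164 FPKM. Replicate 3 had the most MYH1 and the least MYH13 and MYH4, while MYH2 was lowest in replicate 1.

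The other chains were lower. MYH8, the perinatal chain, was at 49.6, 52.4 and 22.6 FPKM, and MYH3, the embryonic chain, at 12.3, 9.16 and 10.5 FPKM. MYH6, the alpha-cardiac chain that also occurs in some head muscles, was at 34.3, 57.7 and 34.2 FPKM. The divergent chains MYH7B and MYH15 were at 0.634, 1.84 and 0.774 FPKM and at 0.0171, 0.0256 and 0.0184 FPKM. In order of mean FPKM, the ranges over libraries of MYH13 and MYH4 overlapped, as did those of MYH4 and MYH2 and those of MYH6 and MYH8. Within each library MYH13 exceeded MYH4, while the order within the other pairs changed between libraries. MYH1 lay above all other chains in every library, and MYH3 lay below MYH6 and MYH8. MYH7, the slow beta-cardiac chain, was not analysed here. Closely related chains share sequence, and reads may have been split between them.

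**Figure D3:**
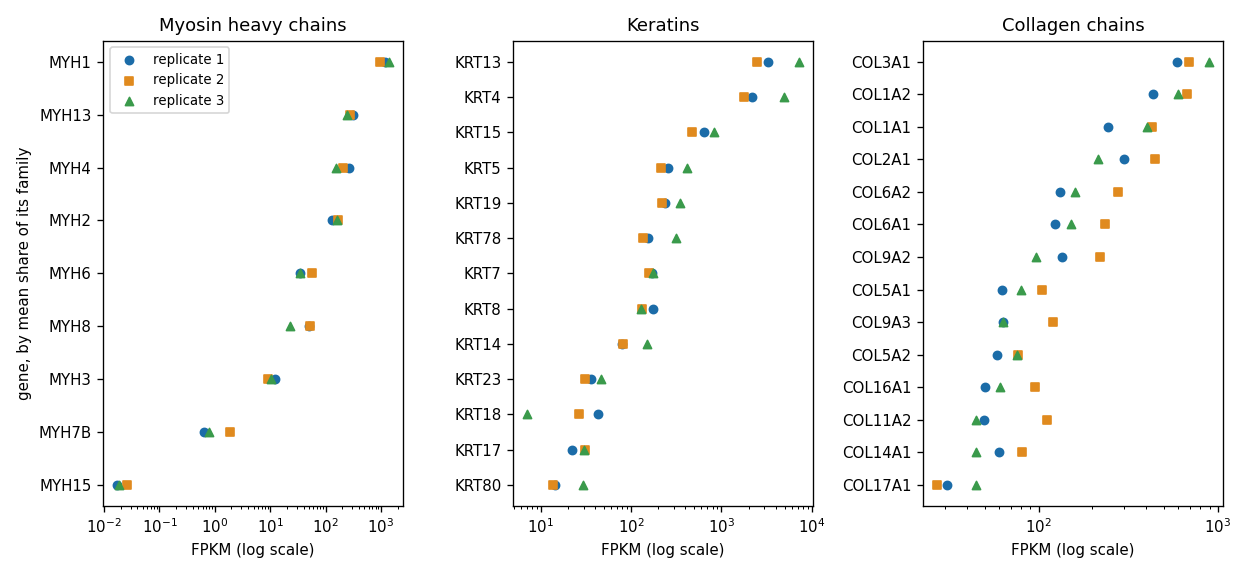
FPKM on a log scale of the 9 striated myosin heavy chain genes, and of the 13 keratins and the 14 collagen chains of largest mean share in their family. Each has 1 point per normal library. MYH1 exceeds every other myosin, KRT13 and KRT4 lie above the other keratins with replicate 3 to the right, and the cartilage chains COL2A1, COL9A2, COL9A3 and COL11A2 have replicate 2 to the right.

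Several slow and cardiac-type sarcomere genes were low in replicate 1. MYL3, the slow and ventricular light chain, was at 24.6, 64.6 and 62.7 FPKM, and MYL2, the slow regulatory light chain, at 23.8, 65.9 and 43.5 FPKM. Both were lowest in replicate 1. The ratio of MYL1 to MYL3 was 93.7, 32.1 and 34.96. TNNT1 is the symbol of slow skeletal troponin T, and this gene was at 1958, 1621 and 1845 FPKM. Its deposited description reads troponin T beta isoform, its level was 42.4, 25.4 and 21.4 times that of its slow partner TNNI1, and its identity is uncertain. The calcium pump genes ATP2A1, of fast fibres, and ATP2A2, of slow fibres, were at 954, 804 and 825 FPKM and at 135, 124 and 145 FPKM. Sarcolipin (SLN), a peptide that slows the pump, was at 1229, 947 and 1237 FPKM, although its deposited description names the neighbouring gene SLC35F2. TPM3, the slow tropomyosin gene, was at 99.8, 99.4 and 128 FPKM. Of 17 members of the slow and cardiac list, 7 ranged over at least 2 times, MYL2, MYL3, MYL4, TNNT2, MYOZ2, CA3 and MYH7B, all lowest in replicate 1. Without replicate 1, 1 ranged that widely.

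Of the myogenic factors, MYF6, the one kept in adult fibres, was highest at 65.5, 60.4 and 74.2 FPKM. Myogenin (MYOG) was at 23.4, 15.2 and 18.3 FPKM, MYOD1 at 2.86, 2.55 and 2.801 FPKM and PAX7, the factor of satellite cells, at 0.509, 0.4999 and 0.8697 FPKM. MEF2C, a partner of these factors, was at 20.6, 18.99 and 18.3 FPKM, and myostatin (MSTN), the inhibitor of muscle growth, at 21.2, 15.6 and 15.1 FPKM. The adult acetylcholine receptor subunit CHRNE was at 8.78, 11.1 and 8.73 FPKM and the fetal subunit CHRNG at 0.765, 0.883 and 1.38 FPKM, so the adult form was the higher in every library. The median ratio of the list was 1.29, and 1 of 16 members ranged over at least 2 times, MYF5.

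Cartilage genes had counts in all 3 libraries and were mostly highest in replicate 2. COL2A1 was at 299, 444 and 214 FPKM. Aggrecan (ACAN), the large proteoglycan of cartilage, was at 43.4, 90.9 and 51.8 FPKM, and SOX9, the transcription factor of chondrocytes, at 25.2, 42.4 and 24.2 FPKM. WIF1 and FRZB, secreted inhibitors of WNT signals, were at 173, 205 and 181 FPKM and at 136, 283 and 119 FPKM. Replicate 2 held the most of all 5. Of 29 members, 25 were highest in replicate 2, 3 in replicate 3 and 1 in replicate 1, and 17 ranged over at least 2 times, with a median ratio of 2.09. Without replicate 2, 5 ranged that widely, and without replicate 3, 7. MGP, which fibroblasts also make, was 70.8% of the list's sum, and without it the list summed to 1363, 2215 and 1208 FPKM. COL2A1 over COL1A1 was 1.22, 1.04 and 0.534, so per length cartilage collagen exceeded COL1A1 in replicates 1 and 2 and not in replicate 3.

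Of the lists for nerve, the Schwann cell and myelin list had 21 of 27 members at 1 FPKM, several of which other tissues of the fold also make. PMP22, a protein of peripheral myelin, was at 49.99, 52.3 and 50.9 FPKM. It was nearly equal in the 3 libraries, unlike S100B, a calcium-binding protein of Schwann cells and chondrocytes, at 192, 478 and 159 FPKM, and GFAP, the filament protein of non-myelinating Schwann cells, at 53.7, 153 and 84.2 FPKM. S100B and GFAP were both highest in replicate 2, the library in which the cartilage list held its largest share; whether that list and these genes are linked was not tested. MAL, listed here as a myelin gene too, was given with the epithelium. SOX10, a factor of Schwann cells that glands also use, was at 11.7, 9.85 and 2.47 FPKM, lowest in replicate 3 like the gland genes. Of 21 members, 8 ranged over at least 2 times, 3 without replicate 2 and 4 without replicate 3, and the library ranking was mixed, with 9, 7 and 5 members highest in the 3 libraries.

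Neuronal transcripts, whose cell bodies lie outside the larynx except for small ganglia, were scarce. Of 24 matched members, 4 reached a mean of 1 FPKM. TUBB3, neuronal tubulin, was at 3.03, 7.04 and 3.76 FPKM, UCHL1, a neuronal ubiquitin hydrolase, at 6.96, 5.58 and 3.93 FPKM, and chromogranin B (CHGB), of neuroendocrine granules, at 6.43, 3.16 and 2.12 FPKM. SNAP25, a synaptic protein, was at 0.577, 0.295 and 0.218 FPKM and ELAVL4, a neuronal RNA-binding protein, at 0.0173, 0.0256 and 0.0287 FPKM. Among taste, chemosensory and ionocyte genes, 5 of 15 reached a mean of 1 FPKM, led by ITPR3 with 56.9% of the list's sum. Below that mean were GNAT3, the taste transducin, at 1.53, 0.765 and 0.237 FPKM and FOXI1, the factor of ionocytes, at 0.155, 0.202 and 0.0487 FPKM.

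Vessel genes were mostly highest in replicate 2. The endothelial adhesion molecule PECAM1 was at 24.1, 35.5 and 29.8 FPKM, von Willebrand factor (VWF) at 11.6, 30.98 and 22.7 FPKM and VE-cadherin (CDH5) at 12.2, 16.8 and 16.3 FPKM. The water channel AQP1, found in capillaries and also in chondrocytes, was at 302, 727 and 455 FPKM. PLVAP and ENG, of capillary endothelium, were at 36.6, 72.1 and 42.3 FPKM and at 41.3, 65.6 and 42.96 FPKM. Of 27 endothelial members, 23 were highest in replicate 2, 4 in replicate 1 and 0 in replicate 3, while 19 were lowest in replicate 1. The median ratio was 1.52, and 5 ranged over at least 2 times, VWF, AQP1, SELP, ACKR1 and CLDN10. Without replicate 2, 1 did. Of 8 lymphatic genes, 5 reached a mean of 1 FPKM, among them PDPN at 11.5, 25.003 and 18.4 FPKM and LYVE1 at 15.6, 13.2 and 16.1 FPKM. PROX1, the lymphatic transcription factor, was below it at 0.425, 0.437 and 0.391 FPKM. Smooth muscle actin (ACTA2) was at 199, 175 and 111 FPKM and smooth muscle myosin (MYH11) at 38.4, 34.7 and 18.9 FPKM, both lowest in replicate 3 with 11 of 18 smooth muscle and pericyte members.

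Of the immune lists, the macrophage list was the longest, and 25 of its 30 matched members reached 1 FPKM, against 13368 of all 20525 genes. Its mean share of the summed FPKM was 0.165%, below the B and plasma cell list with 0.341% and the neutrophil list with 0.311%. JCHAIN made up 84.7% of the first of those sums and S100A12 96.8% of the other. Among macrophage genes, CD74, the invariant chain of antigen presentation, was at 243, 427 and 317 FPKM, and the complement chain C1QC at 39.1, 73.1 and 44.5 FPKM. CSF1R was at 24.3, 28.8 and 24.2 FPKM, CD68 at 18.5, 20.8 and 25.5 FPKM and the haemoglobin scavenger receptor CD163 at 5.87, 7.31 and 7.56 FPKM. Replicate 2 was highest for 20 of 25 macrophage members, with a median ratio of 1.47. T and NK cell genes were lower, with CD3E at 5.67, 3.22 and 3.004 FPKM, CD8A at 2.05, 2.05 and 1.21 FPKM and CD2 at 1.13, 1.25 and 1.18 FPKM, and 0 of 22 members reached a mean of 10 FPKM. Of 6 mast cell genes, 3 reached 1 FPKM, with KIT at 4.91, 4.29 and 2.203 FPKM and MS4A2, a chain of the immunoglobulin E receptor, at 0.479, 1.27 and 1.68 FPKM.

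The neutrophil list needs its members named, since S100A12, calgranulin C, was 96.8% of its sum. S100A12 was at 867, 597 and 2492 FPKM, highest in replicate 3 like its relatives from the suprabasal list, S100A8 at 112, 125 and 343 FPKM and S100A9 at 131, 204 and 567 FPKM. The granulocyte receptor CSF3R was at 2.04, 5.58 and 4.45 FPKM, and the list without S100A12 summed to 35.7, 52.3 and 44.4 FPKM. The chemoattractant receptor FPR1 was at 0.476, 4.17 and 3.64 FPKM, lowest in replicate 1 with 8 of the 13 members. Of the 13, 10 ranged over at least 2 times and 3 did without replicate 1. Of 7 red cell genes, 2 reached 1 FPKM, the globin gene HBB2 at 211, 101 and 102 FPKM and ALAS2, of haem synthesis, at 3.13, 1.698 and 1.77 FPKM. Of 14 fat cell genes, 11 reached 1 FPKM, with adiponectin (ADIPOQ) at 34.6, 41.4 and 39.96 FPKM and RBP4, the retinol carrier, at 129, 214 and 103 FPKM. FABP4, the fatty acid carrier of fat cells, was at 61.7, 10.96 and 14.8 FPKM, high in replicate 1 only.

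Of neighbouring organs, the defining markers thyroglobulin, parathyroid hormone and GKN1 were below 1 FPKM, while the salivary marker AMY1A was not analysed here. Thyroglobulin (TG) was at 0, 0.0260 and 0.0758 FPKM and parathyroid hormone (PTH) at 0.361, 0.487 and 0.597 FPKM. The thyroid list had 5 of 12 members at 1 FPKM, led by DUOX2, an oxidase that airway epithelium also makes, and 4 of them were highest in replicate 3. The gastric gene GKN1 had no counts in any normal library, with the same limit as lactoperoxidase. None of 6 matched gastric members reached 1 FPKM, and the other defining gastric markers, TFF2 and PGC, were not analysed here. A gastrokine-3-like model outside the list was at 36.9, 5.58 and 0.667 FPKM and was chosen after its values had been seen. Of 6 pigment cell genes, 2 reached 1 FPKM, and MLANA and PMEL were at 1.25, 1.69 and 1.22 FPKM and at 0, 0.0684 and 0.123 FPKM. Of 33 transcription factors of larynx and pharyngeal arch position, 30 reached 1 FPKM, with TBX1, a pharyngeal factor, at 65.8, 56.5 and 61.5 FPKM, TBX15 at 60.7, 51.1 and 58.5 FPKM, HOXB2 at 28.7, 24.6 and 45.1 FPKM and HOXA3 at 6.97, 5.32 and 6.01 FPKM. FOXF1, a factor of foregut mesenchyme, was at 9.43, 19.5 and 11.02 FPKM, highest in replicate 2. PAX1, a factor of pharyngeal pouches and cartilage, was at 2.76, 2.95 and 0.2596 FPKM and BARX1, a pharyngeal arch factor, at 1.12, 1.42 and 0.0604 FPKM, both near 0 in replicate 3 and chosen after their values had been seen. The list summed to 358, 354 and 367 FPKM, and 5 members ranged over at least 2 times.

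Proliferation genes with a mean of at least 1 FPKM were all highest in replicate 3. PCNA, the replication clamp, was at 49.5, 40.9 and 55.01 FPKM, MKI67 at 4.08, 4.85 and 12.03 FPKM and TOP2A, the mitotic topoisomerase, at 3.96, 3.48 and 7.78 FPKM. Cyclin B1 (CCNB1) was at 6.46, 7.94 and 20.9 FPKM and CDC20, an activator of mitotic exit, at 5.26, 5.102 and 18.7 FPKM. Of 28 members, 28 were highest in replicate 3, against 40.1% of all genes, and 21 ranged over at least 2 times, 0 without replicate 3. Beside them stand the basal keratins and TP63, which were also highest in replicate 3. Whether more epithelium in that library accounts for the proliferation genes was not tested.

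By the median ratio, genes of energy metabolism ranged less than genes in general. ALDOA, the aldolase of muscle, was at 2191, 2129.8 and 2177 FPKM, the lowest relative spread among the 30 most abundant genes. GAPDH was at 1119, 1023 and 1177 FPKM, the pyruvate kinase PKM at 428, 412 and 395 FPKM and LDHA at 288, 280.5 and 294 FPKM. The ATP synthase subunit ATP5B was at 695, 632 and 675 FPKM and the cytochrome oxidase subunits COX4I1 and NDUFA4 at 573, 569.6 and 601 FPKM and at 276, 274 and 315 FPKM. Of 46 nuclear genes of the respiratory chain, 30 were highest in replicate 3, yet the median ratio was 1.11 and 1 ranged over at least 2 times. That member was CYCS, cytochrome c, at 269.9, 168 and 110.5 FPKM, whose product is also assigned to other gene models. Of 20 glycolysis genes, 3 ranged that widely, 15.0% against 11.9% of all genes, although the median ratio was 1.13 against 1.296. Among the 3 were ENO2, the neuronal enolase, and ALDOC, the aldolase of nerve and other tissues. ALDOC was at 81.1, 258 and 65.1 FPKM, high in replicate 2.

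Immediate early genes, which answer stress and handling quickly, differed between libraries in several orders. FOS was at 51.3, 37.7 and 12.3 FPKM and EGR1 at 50.8, 45.2 and 15.3 FPKM, both lowest in replicate 3. JUN was at 54.5, 98.03 and 44.3 FPKM and NR4A1 at 14.97, 60.4 and 14.8 FPKM, both highest in replicate 2. The chaperones HSPA8 and HSP90AA1 were at 783, 516 and 586 FPKM and at 372, 227 and 298 FPKM, highest in replicate 1. Of 23 members, 11 ranged over at least 2 times, 3 without replicate 2. Reference genes were steadier, with ACTB at 864, 959 and 1029.8 FPKM, TBP at 6.01, 5.36 and 6.28 FPKM and 0 of 15 ranging over at least 2 times. The smallest relative spreads among genes of at least 100 FPKM were those of EIF3H, a subunit of a translation initiation factor, at 124, 123 and 125 FPKM, GNB1, a G protein subunit, at 124, 122 and 124 FPKM, and the mitochondrial phosphate carrier SLC25A3 at 430.4, 421 and 424 FPKM.

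**Figure D4:**
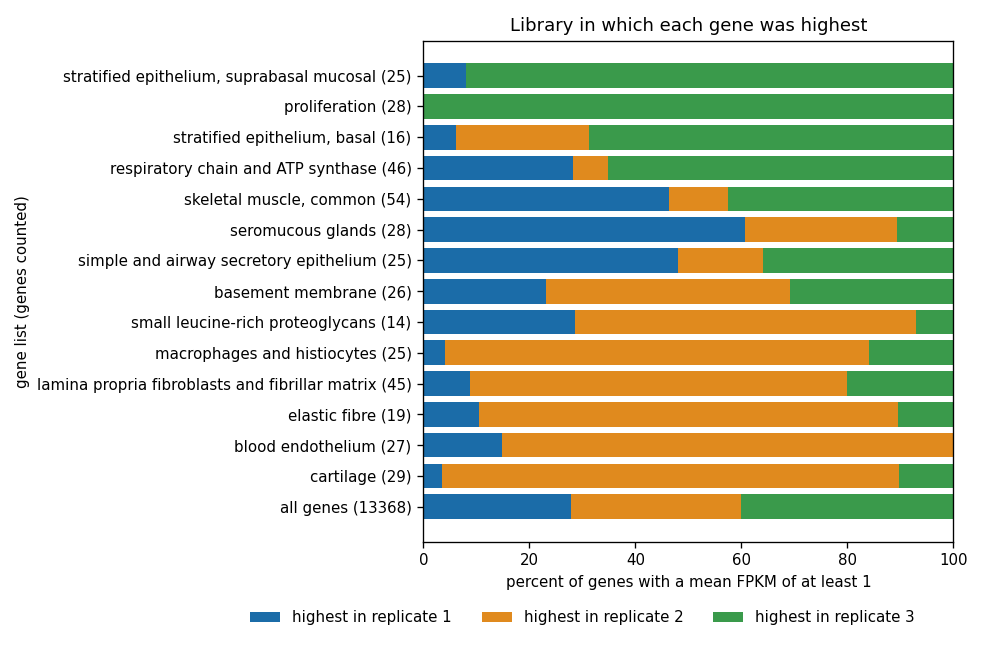
For each gene list, the percent of its members with a mean of at least 1 FPKM that were highest in replicate 1, 2 or 3, with the number of genes counted in brackets and all genes in the bottom bar. Suprabasal epithelium and proliferation are nearly filled by replicate 3, cartilage, endothelium, elastic fibre and lamina propria by replicate 2, and glands mostly by replicate 1.

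Over all genes, 1597 ranged over at least 2 times between the highest and the lowest library. The share of such genes was largest in the class of highest mean FPKM. Classes are set by the mean of the same 3 libraries, so 1 high library can lift a gene into a class. At least 2 times was reached by 45.5% of the 44 genes at 1000 FPKM or more, 12.5% of the 569 genes from 100 to 1000, 7.02% of the 6028 from 10 to 100 and 16.1% of the 6727 from 1 to 10. Among the 1597, replicate 3 was the library farther from the other two in 403 genes by being above them and in 339 by being below. Replicate 2 was above in 279 and below in 170, and replicate 1 above in 160 and below in 246. Pairwise, 685 genes differed at least 2 times between replicates 1 and 2, 922 between 1 and 3, and 976 between 2 and 3. With the filter on the level retaken over the remaining libraries, the count of 1597 became 963 without replicate 1, 917 without replicate 2 and 706 without replicate 3. The biological coefficient of variation estimated by edgeR from the counts of the 3 libraries was 27.3% over 15819 genes.

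The genes that rose furthest above the next library in each replicate included secreted, immunoglobulin and squamous products. In replicate 1 they were DNASE1, a secreted nuclease, at 80.1, 1.37 and 6.93 FPKM, ribonuclease 8, given above, and MUC19, a salivary gel-forming mucin, at 70.6, 7.499 and 1.14 FPKM. An immunoglobulin kappa model, an uncharacterised gene and a gene without a description, at 2574, 189 and 329 FPKM, completed the 6. In replicate 2 they were an immunoglobulin heavy chain variable model at 4.104, 73.97 and 2.61 FPKM, an immunoglobulin kappa variable model at 5.09, 28.7 and 1.36 FPKM, NR4A1 and the glutathione peroxidase GPX6 at 6.77, 24.1 and 1.79 FPKM. A copy of ATP synthase-coupling factor 6 at 2.51, 45.2 and 4.76 FPKM and an uncharacterised gene were the others. In replicate 3 they were serpin B4, a squamous protease inhibitor, at 2.199, 2.19 and 34.9 FPKM, a model described as S100-A7-like at 8.86, 8.62 and 109.5 FPKM, and SPINK7, a protease inhibitor of squamous epithelium, at 26.9, 2.37 and 239.7 FPKM. RPL34 at 2.65, 8.397 and 99.1 FPKM, a partial ubiquitin model and the mitochondrial gene ATP6 completed the 6. ATP6 was at 0, 0 and 429 FPKM from 0, 0 and 136 counts, and the overlapping gene ATP8 had 75, 72 and 0 counts, so reads may have been given to one or the other.

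Involucrin (IVL), a cornified envelope protein of the suprabasal list, was at 3.26, 14.9 and 19.2 FPKM, low in replicate 1 alone, and is named after its values had been seen. Of the 25 suprabasal members, 18 were lowest in replicate 2 and 7 in replicate 1.

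**Figure D5:**
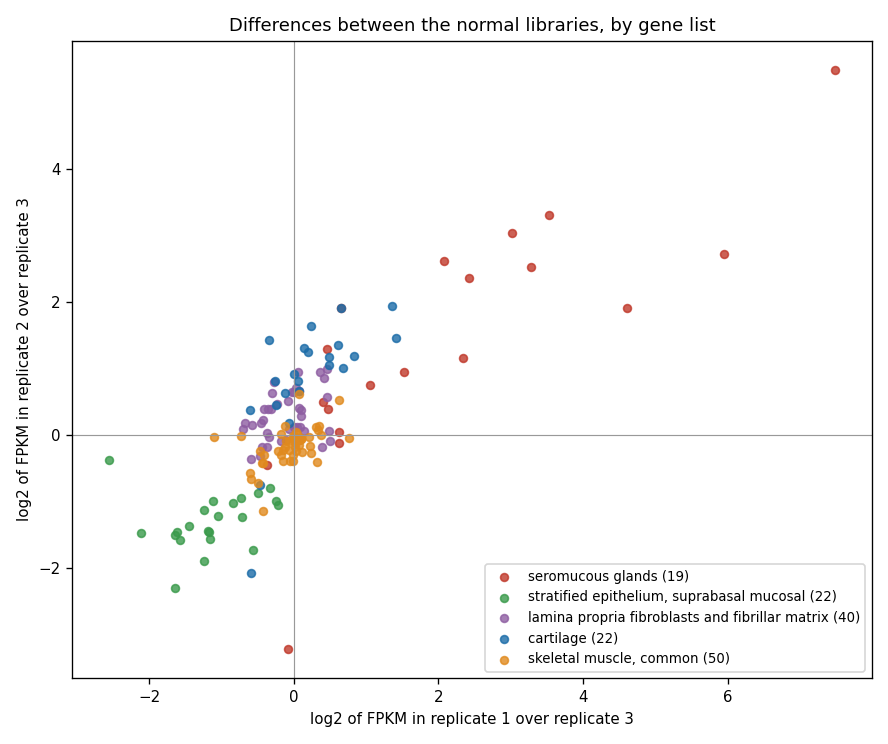
Each point is a gene with a mean of at least 10 FPKM, placed by the log2 ratio of replicate 1 to replicate 3 (horizontal axis) and of replicate 2 to replicate 3 (vertical axis), coloured by list with the number of genes in brackets. Gland genes lie to the upper right, suprabasal epithelial genes to the lower left, cartilage genes mostly above the horizontal line, and muscle genes around the origin.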

How the data were processed

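The deposited table holds whole read counts and FPKM per gene for each library, made by the authors before deposit. Per the submitters' processing notes the tools were cutadapt 1.9, HISAT2 2.0.4, StringTie 1.3.4d and edgeR with the genome build OryCun2.0, with no roles or settings stated there. Only the 6 columns of the 3 normal libraries were read, and the other 12 were not used. Genes were ranked by mean FPKM. Ratios of highest to lowest library were taken over genes with a mean of at least 1 FPKM and called at 2 times, with no test, since a single group was described. Of 5734 genes named by locus number, 530 took symbols from the RefSeq gene table and 11 from the deposited description. The 38 gene lists (975 entries, 936 distinct genes) were chosen with earlier results of these data known. Genes absent from the table were not analysed here, and some list members are not reported here.

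Named genes were the 30 of highest mean FPKM, the 4 highest and the 3 defining members of each list, all striated myosin heavy chains, and for each library the 6 genes (mean FPKM at least 10) farthest above the next library. Genes named outside this rule were chosen after their values had been seen. Dispersion of the counts was estimated with edgeR 4.0.16 in R 4.3.3, with size factors of DESeq2 1.42.0 as an alternative, and the rest was computed with Python 3.11.15 and pandas 2.3.3. Limits for a count of 0 take 3 counts and cover counting error only. Alternatives were read counts in place of FPKM, a total without the 10 highest genes, other filters and thresholds, and leaving out each library.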

Additional observations from a re-analysis of the deposited data

How the results depend on the processing

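Of 125 alternatives of the list shares, counts and family compositions, 18 moved a share by over 1 replicate SD or a count by over 1.5 times. Leaving out 1 of 3 libraries cannot move a mean by 1 SD of the same libraries, so those values say nothing about stability. As a share of read counts, the basal list held 0.497%, elastic fibre 0.602%, muscle 3.94% and cartilage 0.831%, and within the keratins KRT13 held 39.96% and KRT4 35.1%. With the 10 highest genes left out of the total, airway secretory epithelium held 0.619%, muscle 4.97% and cartilage 0.397%, since BPIFA1, BPIFB1 and MGP are among those 10. Genes ranging over at least 2 times numbered 706 to 963 with 1 library left out, 1060 with no filter on the log2(FPKM + 1) scale and 514 with a mean FPKM of at least 10, and 594 ranged over at least 3 times. With a mean FPKM of at least 10, fewer members were counted: 6 proliferation genes were highest in replicate 3, and 14 endothelial and 12 macrophage genes in replicate 2. Of 512 alternatives of 128 mean FPKM values (1 library left out, or the median), 24 moved the value by over 1.5 times. FLG fell to 0 without replicate 1. No paired analysis was possible because 1 group was described and no groups were compared. Genes of a few counts, the mitochondrial genes among them, are limited by depth.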

Other observations

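Gene models of one product often disagreed where their sum did not. For ribosomal protein L23a, the gene RPL23A was at 572, 19.6 and 491 FPKM, while the 9 models of that description summed to 1661, 1962 and 1672 FPKM. The 4 models of L34 summed to 461, 549 and 451 FPKM, the 12 of cytochrome c to 303, 251 and 222 FPKM and the 6 of ATP synthase-coupling factor 6 to 139, 176 and 158 FPKM. The 2 lipocalin-1 models behaved otherwise and summed to 6521, 4004 and 118 FPKM. These groups were put together after the values had been seen.

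Mitochondrial genes had few counts in these libraries. The gene ND4L had 26, 36 and 39 counts and an FPKM of 81.99, 112 and 122, which implies a length of 7.09, 7.04 and 7.09 bases against a span of 297. FPKM of mitochondrial genes is therefore not comparable with that of other genes in this table.

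The 181 models of ribosomal protein genes and their copies together held 9.54%, 10.6% and 11.2% of the summed FPKM, and 155 of them had a mean of at least 1 FPKM. The cytokine gene IL1B was at 4.21, 18.003 and 18.6 FPKM, lowest in replicate 1, and was chosen after its values had been seen.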
